A study of Mus musculus with 27 samples.

Results

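The comparison of corticosterone with vehicle in wild-type macrophages rests on 6 of the 27 RNA sequencing libraries of the study: all 3 wild-type libraries labelled corticosterone and all 3 wild-type libraries labelled as control (vehicle). The libraries were taken by those labels alone, and all 14589 genes with enough counts were tested. Macrophages were grown for 5 days from bone marrow of male mice aged 8 to 10 weeks, in low-glucose medium that contained bovine serum (20%) and medium conditioned by L cells (10%), and then treated for 24 h. Corticosterone was given at 500 nM. Groups used for comparison were wild-type cells with dexamethasone at 100 nM (3 libraries) and cells of LysM-Cre+/+; GRIP1fl/fl mice, called knockout here, with vehicle or corticosterone (4 libraries each). The sample labels give the wild-type genotype as C57BL/6, LysM-Cre+/+; GRIP1wt/wt, whereas the titles and the series text call these mice BL6. By the sample labels all groups therefore carry Cre in the LysM (Lyz2) locus, and only the knockout carries floxed GRIP1 alleles. Whether the libraries of a group came from separate mice is not given in the labels; the p-values therefore reflect variation among libraries, and this may be only technical.

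Corticosterone is the main natural glucocorticoid of the mouse. It enters cells and binds the glucocorticoid receptor, a nuclear receptor encoded by Nr3c1 that is held ready in the cytoplasm by heat shock proteins and immunophilins. The bound receptor moves to the nucleus, where it activates genes through palindromic DNA elements and, with coregulators such as GRIP1 (encoded by Ncoa2), lowers the transcription of many genes driven by the inflammatory factor NF-kappaB. In macrophages glucocorticoids are known for dampening cytokine production and for favouring the clearance of dead cells and haemoglobin.

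The 6 libraries held 26001499 to 31589581 counts in genes, and levels are given as CPM, a gene's counts relative to the scaled library size. The summed level of 18 macrophage markers was 14600 to 14900 CPM with vehicle and 15100 to 15800 CPM with corticosterone, so transcripts of these markers were abundant in both groups. Of the 18, 2 were called higher and 2 lower (11.1% each way, against 3.48% and 2.46% of all genes tested), and 10 had a positive and 8 a negative log2 fold change. Lyz2, otherwise an abundant macrophage transcript, was low at 49.7, 36.3 and 30.9 CPM with vehicle and 36.7, 27.4 and 32.2 CPM with corticosterone, in cells labelled with Cre at both copies of this locus. Library number 1 of both groups stood apart from numbers 2 and 3. On the principal component that held 45% of the variance it lay at −28.5 with vehicle and −16.2 with corticosterone, against 1.04 to 21.4 for the other libraries. Number 1 also had the most neutrophil and stromal transcripts: S100a9 was at 135, 50.7 and 34.8 CPM with vehicle and 115, 50.6 and 30.9 CPM with corticosterone, and the collagen gene Col1a1 at 350.2, 119.8 and 94.2 CPM and 315, 118 and 76.1 CPM. The treatment groups overlapped for these genes. Treatment separated the groups on the next component, which held 39.3%: corticosterone libraries lay at 11.7 to 20.7 and vehicle libraries at −21.4 to −8.69. In bulk samples such as these, fewer cells of a type and less RNA per cell cannot be told apart.

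**Figure D1:**
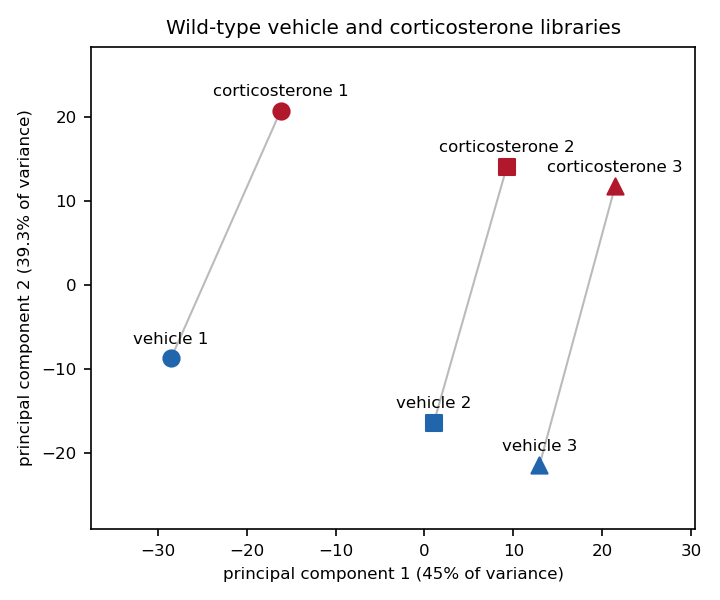
Position of each of the 6 wild-type libraries on the principal components that held 45% (horizontal axis) and 39.3% (vertical axis) of the variance of log2 CPM. Red marks corticosterone and blue vehicle, marker shape gives the replicate number, and grey lines join libraries of the same number. Number 1 lies to the left in both groups, and the corticosterone libraries lie above the vehicle libraries.

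Corticosterone changed 866 of the 14589 genes tested (5.94%) at an adjusted p under 0.05 by edgeR's quasi-likelihood test, of which 507 (3.48% of the genes tested) were higher and 359 (2.46%) lower. Most changes were modest. The median log2 fold change was 0.52 among genes called higher and −0.61 among those called lower, beside 0.01 over all genes tested. At least 2-fold changes numbered 114 up and 96 down, and at least 4-fold changes 33 up and 24 down, while 241 rises and 125 falls were under 0.5 on the log2 scale. Calls were more frequent among genes with many counts: of the 3647 genes at 69.7 CPM or more, 222 were called higher and 120 lower, against 64 and 55 of the 3648 genes under 2.22 CPM, where the median SE of the log2 fold change was 0.38 rather than 0.08. Each of the 866 genes moved in the called direction in all 3 same-numbered pairs of libraries, a pattern seen in 51.5% of all genes tested. Groups without overlap were found for 99.6% of genes called higher and 98.6% of those called lower, against 24.5% of all genes tested. A lack of overlap given below for a called gene therefore adds little to the call. The counts shrank with fewer libraries, to 497 without the corticosterone library number 2 and 561 without number 3, and to 486, 291 and 323 without the wild-type libraries numbered 1, 2 and 3. They grew, with replicate number as a block, to 1033 higher and 757 lower.

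**Figure D2:**
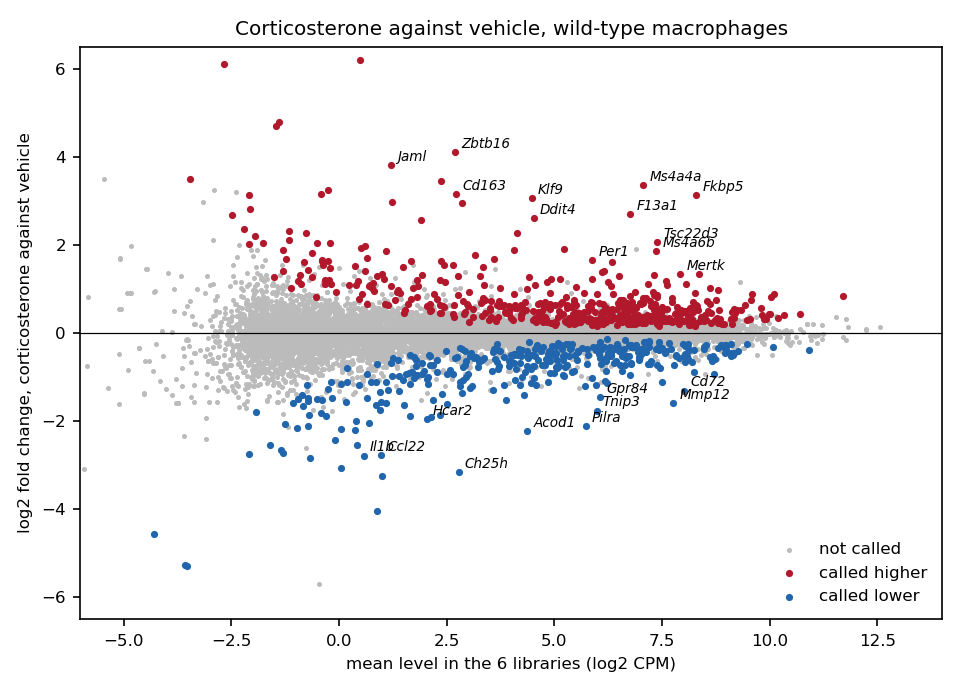
Fitted log2 fold change with corticosterone (vertical axis) against the mean level in the 6 libraries (horizontal axis, log2 CPM) for the genes tested. Red points were called higher (507), blue points called lower (359) and grey points not called, and 23 genes lie outside the axes. Zbtb16, Ms4a4a, Cd163, Fkbp5 and Klf9 are among the highest labelled points and Ch25h is the lowest labelled one.

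The receptor itself did not pass the test. Nr3c1 (ENSMUSG00000024431, GRCm38 chromosome 18, 39410545 to 39519421, minus strand) was at 88.0, 112 and 111 CPM with vehicle and 88.3, 100.2 and 94.0 CPM with corticosterone. The groups overlapped, and the log2 fold change was −0.14 ± 0.10 (SE; adjusted p = 0.595), with a 95% interval of −0.35 to 0.07. Hsd11b1, whose enzyme regenerates active glucocorticoid inside cells, was also not called, at 3.25, 1.35 and 1.37 CPM and 2.57, 1.09 and 0.996 CPM. Of 20 tested genes for the receptor, its chaperones and steroid handling, only Fkbp5 was called in that test (5.0% higher, against 3.48% of genes tested). The median over the list was −0.09. None of 21 tested receptor coregulators was called (median 0.06). With the replicate block 1 gene rose and 1 fell in each of these lists. Ncoa2, the GRIP1 gene, was at 55.7, 71.4 and 72.0 CPM with vehicle and 76.5, 87.7 and 75.2 CPM with corticosterone. These groups did not overlap, but the difference of 0.27 ± 0.15 missed the threshold (adjusted p = 0.441) and passed it with the replicate block (adjusted p = 0.0327).

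Fkbp5 encodes an immunophilin that lowers the affinity of the receptor for its ligand and is a feedback target of glucocorticoids. This gene (chromosome 17, 28399094 to 28517527, minus strand) was at 65.6, 63.7 and 63.0 CPM with vehicle and at 499, 559 and 624 CPM with corticosterone, a log2 fold change of 3.13 ± 0.10 (adjusted p = 2.26e-16). Every treated library exceeded every vehicle library by several fold. Tsc22d3 (chromosome X, 140539528 to 140600659, minus strand) encodes GILZ, which binds and restrains NF-kappaB and AP-1. Its level went from 65.2, 57.1 and 70.2 CPM to 241, 245 and 321 CPM (2.07 ± 0.12, adjusted p = 4.79e-11), and library number 3 was the highest in both groups.

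Genes that are textbook targets of glucocorticoids in other cells responded unevenly. Of 41 tested members of a list of known glucocorticoid-induced genes, 17 rose, 3 fell and 21 were not called, and the median was 0.44. The shares were 41.5% higher and 7.32% lower, against 3.48% and 2.46% of genes tested. This list was written with earlier results of these libraries known, so its direction is not independent evidence. The sulphotransferase gene Sult1a1 rose from 1.28, 1.81 and 1.84 CPM to 8.70, 12.7 and 17.4 CPM (2.97 ± 0.35, adjusted p = 5.81e-06), with the lowest treated library above every vehicle library. The 3 falls were in the clock gene Per2, in Rgs2, which shortens G protein signals, and in Anxa1. Anxa1 encodes annexin A1, an anti-inflammatory mediator often described as glucocorticoid-induced. It was lower in every treated library, at 676, 666 and 607 CPM with vehicle and 498, 453 and 415 CPM with corticosterone (−0.51 ± 0.10, adjusted p = 0.00217). Rgs2 went from 136, 137 and 134 CPM to 87.2, 81.6 and 83.6 CPM (−0.69 ± 0.10). Dusp1, the phosphatase that switches off p38 and JNK kinases and a common example of glucocorticoid induction, was at 77.3, 90.7 and 61.1 CPM with vehicle and 125, 153 and 88.7 CPM with corticosterone. Within each replicate number it was higher with corticosterone, but the groups overlapped. Its log2 fold change of 0.68 ± 0.27 was not called (adjusted p = 0.177) without the replicate block and was called with it (adjusted p = 0.000892). With the block the list counted 19 rises and 6 falls.

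**Figure D3:**
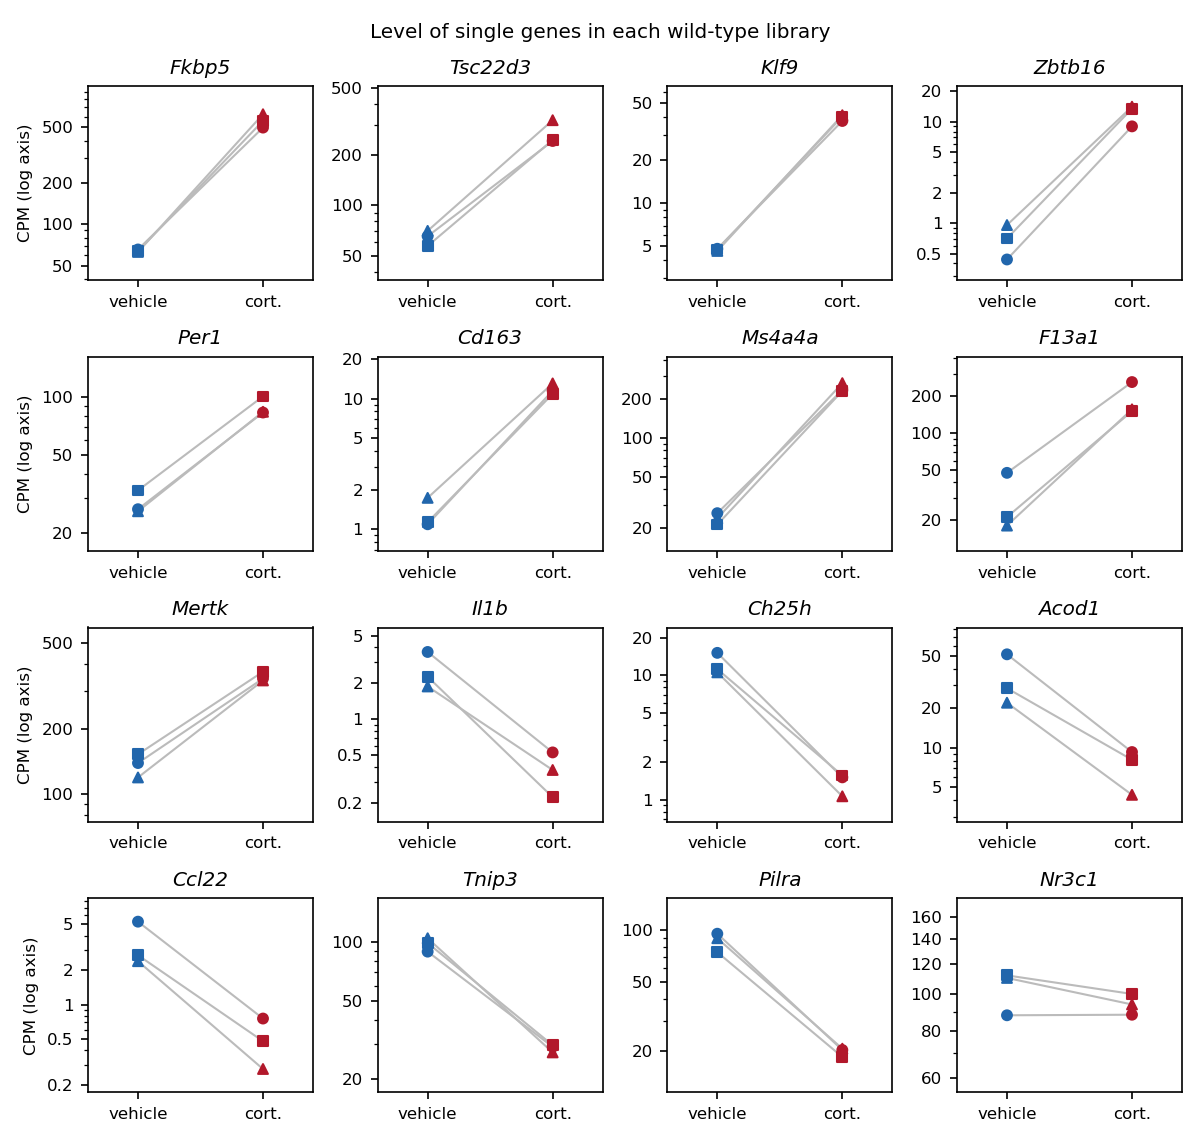
Level (CPM, log axis) of 16 genes in each wild-type library with vehicle (blue) and corticosterone (red). Each panel is 1 gene with its own axis range, marker shape gives the replicate number, and grey lines join libraries of the same number. Among the genes shown only Nr3c1 has overlapping groups.

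The promoters of called genes were searched for the receptor's palindrome, the hexamer AGAACA followed by 3 spacer bases and its reverse complement, allowing up to 2 mismatches outside the spacer, on both strands. The windows were RefSeq promoters of 300 bases, 250 before to 50 after the annotated start (GRCm38.p6), found for 10614 of the genes tested. An approximate palindrome was present in 6 of 400 promoters of genes called higher (1.5%), 5 of 281 of genes called lower (1.78%) and 130 of all 10614 (1.22%). Among genes that rose at least 2-fold it was present in 5 of 83 (6.02%), and among those that fell at least 2-fold in 2 of 67 (2.99%). The hexamer alone, on either strand, was in 25.3% of those 83 promoters, in 17.0% of promoters of genes called higher, in 12.1% of genes called lower and in 15.2% of all. A match is a stretch of letters and not a binding site, and elements farther away were not searched. Of the 6 rising genes with the palindrome 5 rose at least 2-fold. Sult1a1 and Ms4a6c, picked by hand from these, are shown with the matching letters in capitals. In Sult1a1 (minus strand, chr7:126676419-126676502) the match begins 34 bases before the start and has 2 mismatches.
Sult1a1: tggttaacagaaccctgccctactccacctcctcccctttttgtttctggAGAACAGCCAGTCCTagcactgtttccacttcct
In Ms4a6c (plus strand, chr19:11469118-11469224) it begins 208 bases before the start, also with 2 mismatches.
Ms4a6c: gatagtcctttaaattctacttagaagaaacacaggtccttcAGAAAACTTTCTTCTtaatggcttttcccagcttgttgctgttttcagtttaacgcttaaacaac
The levels of Sult1a1 are given above and those of Ms4a6c with its family below.

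Transcription factors were among the strongest responses. Zbtb16, which encodes the zinc finger repressor PLZF (chromosome 9, 48654297 to 48836222, minus strand), was at 0.438, 0.705 and 0.957 CPM with vehicle and 9.0, 13.5 and 14.1 CPM with corticosterone. With a log2 fold change of 4.11 ± 0.26 (adjusted p = 9.05e-11) this was the largest rise among called genes that reached 5 CPM and had a gene name. Klf9, a Kruppel-like factor induced by glucocorticoids in many tissues, rose from 4.81, 4.75 and 4.65 CPM to 37.7, 40.5 and 41.3 CPM (3.07 ± 0.14, adjusted p = 2.57e-13). Its libraries varied by little within each group, and number 1 did not stand apart. Of 19 tested Kruppel-like and other zinc finger factors, 5 rose (26.3%, against 3.48% of genes tested) and none fell. Their median was 0.09, and with the block 5 rose and 1 fell. Klf13 (0.60 ± 0.10) and Klf3 (0.54 ± 0.12) rose by less, and Klf3 was not called without the vehicle library number 1 (adjusted p = 0.0572). Without that library 3 members of the list were called. Of 20 AP-1 and other immediate early genes none was called, and 15 had a negative log2 fold change (median −0.15), beside 47.8% of all genes tested. With the block 1 of them rose.

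Circadian clock genes changed in both directions. Per1, a clock repressor that glucocorticoids induce directly, rose from 26.4, 32.9 and 25.7 CPM to 83, 100.5 and 83.7 CPM (1.65 ± 0.11, adjusted p = 2.24e-10). The opposite was seen for Dbp and Tef, related factors that act on clock output genes. Tef fell from 45.9, 51.4 and 52.3 CPM to 23.4, 25.6 and 27.5 CPM (−0.97 ± 0.12, adjusted p = 1.19e-05), and Dbp from 8.35, 7.91 and 8.64 CPM to 4.23, 3.93 and 4.81 CPM (−0.94 ± 0.17, adjusted p = 0.00108). Neither gene had overlapping groups. The nuclear receptor gene Nr1d2 (REV-ERB beta) also fell (−0.73 ± 0.14). In total 2 of 20 tested clock genes rose (10.0%, against 3.48% of genes tested) and 6 fell (30.0%, against 2.46%), with a median of −0.19. With the block 3 rose and 8 fell, and without the wild-type libraries numbered 3, 2 fell. The other rise was that of Arntl, which encodes the clock activator BMAL1, at 0.57, and the falls included Per2 at −0.96 (Arntl and Per2 were singled out after their values were seen). Only 1 time after treatment was sampled, so these values give no phase.

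Genes that restrain insulin and growth factor signalling were among the rises. Of 27 tested brakes on PI3K and mTOR, 5 rose (18.5%, against 3.48% of genes tested) and none fell, and the median was 0.07. With the block 7 rose and 2 fell. Ddit4, whose product REDD1 inhibits mTOR complex 1, was at 9.66, 4.38 and 5.50 CPM with vehicle and 32.0, 33.0 and 53.1 CPM with corticosterone (2.61 ± 0.42, adjusted p = 0.000336). Pik3ip1, an inhibitor of PI3K, stayed low, at 0.766, 0.521 and 0.717 CPM and 1.89, 1.82 and 2.06 CPM (1.53 ± 0.26, adjusted p = 0.000492). In both genes every treated library was above every vehicle library. Pik3r1, the regulatory subunit of PI3K, rose by 0.36 ± 0.09 and was not called without the corticosterone library number 2 or the vehicle library number 1 (adjusted p up to 0.101). Leaving out either of these libraries left 3 called members.

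NF-kappaB genes moved in the other direction. Of 24 tested subunits and inhibitors of NF-kappaB, 10 fell and none rose (41.7% lower, against 2.46% of all genes tested), and the median was −0.12. Many of these genes are both regulators and targets of NF-kappaB. Tnip3, which encodes the inhibitory protein ABIN-3, fell the most, from 89.3, 98.9 and 105 CPM to 29.2, 29.7 and 27.3 CPM (−1.76 ± 0.12, adjusted p = 2.36e-10). The signalling adaptor gene Traf1 went from 4.85, 3.19 and 3.18 CPM to 1.85, 1.38 and 1.24 CPM (−1.33 ± 0.21, adjusted p = 0.000144). Nfkb2, the subunit of the noncanonical pathway, fell less, from 99.6, 89.1 and 90.9 CPM to 67.7, 67.9 and 59.6 CPM (−0.52 ± 0.09). Tnip1 (ABIN-1) was at 186, 185 and 179.6 CPM and 122, 120.4 and 112 CPM (−0.63 ± 0.10, adjusted p = 0.000114). None of these 4 genes had overlapping groups. With the block again 10 members fell and none rose, and without any 1 library 7 to 10 fell.

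Several inflammatory mediators fell, although the labels name no inflammatory stimulus. Il1b, the gene of interleukin 1 beta, was at 3.65, 2.27 and 1.88 CPM with vehicle and 0.529, 0.224 and 0.378 CPM with corticosterone (−2.79 ± 0.40, adjusted p = 5.69e-05). Acod1, which makes the antimicrobial metabolite itaconate, fell from 51.6, 28.5 and 22.1 CPM to 9.30, 8.12 and 4.39 CPM (−2.23 ± 0.36, adjusted p = 0.000333). For both genes vehicle library number 1 was the highest of the 6, and the groups did not overlap. Tnf, the gene of tumour necrosis factor, was at 135, 127 and 114 CPM with vehicle and 82.8, 78.8 and 65.5 CPM with corticosterone. Its log2 fold change of −0.73 ± 0.20 (adjusted p = 0.0265) was not called without corticosterone library 2 or 3 or vehicle library 1 or 2 (adjusted p up to 0.14). Il18 went the other way, from 5.76, 5.55 and 5.19 CPM to 8.96, 8.96 and 9.58 CPM (0.74 ± 0.16, adjusted p = 0.00595). Of 20 tested cytokines and inflammatory enzymes 4 fell (20.0%, against 2.46% of genes tested) and 2 rose (10.0%, against 3.48%). The median was −0.40, and with the block 10 fell and 2 rose. Without any 1 library other than vehicle number 1, 1 rise was called, and falls dropped to 2 without corticosterone library 2 or 3 or vehicle library 2.

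Chemokine ligands fell in 7 of 23 cases (30.4%, against 2.46% of genes tested) and rose in 1 (4.35%, against 3.48%), with a median of −0.30. Ccl22, which recruits regulatory and helper T cells through CCR4, was at 5.29, 2.7 and 2.39 CPM with vehicle and 0.756, 0.480 and 0.275 CPM with corticosterone (−2.78 ± 0.45, adjusted p = 0.000255). The neutrophil attractant Cxcl3 went from 4.19, 1.53 and 2.12 CPM to 0.756, 0.608 and 0.515 CPM (−2.05 ± 0.39), and Ccl5 from 4.01, 2.39 and 2.39 CPM to 1.36, 0.896 and 0.721 CPM (−1.56 ± 0.31). These 3 genes had few counts in all libraries, with vehicle number 1 highest in each. Cxcl16, a scavenger and chemokine made in quantity by macrophages, had many more counts and fell from 353, 354 and 365 CPM to 219, 233 and 222 CPM (−0.67 ± 0.12, adjusted p = 0.00114). Without corticosterone library number 2, 4 ligands were called lower. The rise, in Ccl24, was not called without corticosterone library 3 or any 1 vehicle library (adjusted p up to 0.195). With the block 3 ligands rose and 8 fell.

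Promoters of these genes were also searched for the NF-kappaB consensus (chosen after the falls were seen, on both strands, with overlapping matches joined). It was present in 19.6% of promoters of genes called lower, 15.2% of those called higher and 12.4% of all. Among genes changed at least 2-fold the shares were alike, 17.9% (12 of 67) of those lower and 18.1% (15 of 83) of those higher. The promoters of Cxcl10, Tnip1 and Nfkbie, picked from the falling chemokine and NF-kappaB list members that hold a match, are shown with the matches in capitals. Cxcl10 and Nfkbie were singled out after their values were seen. In Cxcl10 (minus strand, chr5:92348933-92349098), which encodes an interferon-inducible chemokine, 2 stretches match, beginning 159 and 104 bases before the start.
Cxcl10: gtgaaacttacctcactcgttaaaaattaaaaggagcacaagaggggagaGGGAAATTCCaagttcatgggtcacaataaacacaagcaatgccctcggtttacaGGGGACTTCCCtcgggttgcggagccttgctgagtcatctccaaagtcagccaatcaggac
In Tnip1 (minus strand, chr11:54962941-54963048) the match begins 58 bases before the start.
Tnip1: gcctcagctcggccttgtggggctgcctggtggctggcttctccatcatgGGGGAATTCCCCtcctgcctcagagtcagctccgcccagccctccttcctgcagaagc
In Nfkbie (plus strand, chr17:45555544-45555653), which encodes the inhibitor I-kappaB epsilon, it begins 106 bases before the start.
Nfkbie: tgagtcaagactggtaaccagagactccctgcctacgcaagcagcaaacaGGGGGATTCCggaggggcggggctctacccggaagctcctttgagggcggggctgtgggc
Cxcl10 was at 2.08, 2.18 and 2.12 CPM with vehicle and 0.378, 0.352 and 0.652 CPM with corticosterone (−2.19 ± 0.49), and Nfkbie at 26.0, 24.2 and 25.0 CPM and 16.5, 17.3 and 17.3 CPM (−0.56 ± 0.14). Falling members of the NF-kappaB, chemokine and cytokine lists that had a promoter but no match were Il1b, Acod1, Ccl22, Tnf, Traf1, Cx3cl1, Cxcl14 and Ikbke. Those with a match were, besides the genes shown, Cxcl3, Ebi3, Nfkb2, Nfkbid, Tnfaip2 and Tnip3.

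A few sensors of microbial products changed, in both directions. Tlr7, the endosomal receptor of single-stranded RNA, rose from 109, 125 and 119 CPM to 246, 275 and 276 CPM (1.18 ± 0.14, adjusted p = 2.94e-06), and Tlr13, which detects bacterial ribosomal RNA, from 449, 529 and 504 CPM to 652, 702 and 674 CPM (0.45 ± 0.09). Irak3, an inhibitory kinase of Toll-like receptor signalling, fell from 96.7, 98.0 and 101 CPM to 45.3, 47.8 and 46.1 CPM (−1.09 ± 0.23, adjusted p = 0.00441). No groups overlapped among these 3 genes. Of 35 tested sensors and inflammasome genes 3 rose (8.57%, against 3.48% of genes tested) and 4 fell (11.4%, against 2.46%), with a median of 0.02, and 7 rose and 5 fell with the block. Between 1 and 3 falls were called when 1 library was left out, with 1 call without vehicle library number 1. Among 21 tested MAPK phosphatases and feedback inhibitors 2 rose (9.52%, against 3.48% of genes tested) and 1 fell (4.76%, against 2.46%). Their median was 0.05, and with the block 4 rose and 2 fell. Dusp6, which dephosphorylates ERK, went from 167, 158 and 159 CPM to 221, 234 and 246 CPM (0.54 ± 0.11), and Zfp36l1, which speeds the decay of AU-rich messages, rose by 0.71 ± 0.14.

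Interferon-stimulated genes leaned lower without many calls. Of 47 tested members 40 had a negative log2 fold change, beside 47.8% of all genes tested, and the median was −0.37. In the test 5 fell (10.6%, against 2.46% of genes tested) and 4 rose (8.51%, against 3.48%). The count of falls depended on the libraries: it was 0 without corticosterone library 1 or 2 or vehicle library 3, and 2 without vehicle library 2. It was 3 without corticosterone library 3, 6 without vehicle library 1, and 17 with the replicate block. Ifi204, a DNA sensor of the HIN200 family, was among the 4 that rose, from 39.3, 42.0 and 52.5 CPM to 74.9, 82.6 and 91.0 CPM (0.89 ± 0.12, adjusted p = 1.25e-05). Its relative Ifi207 went from 85.6, 129.7 and 139.9 CPM to 199, 221 and 225 CPM (0.86 ± 0.20) and was not called without vehicle library number 1 (adjusted p = 0.066). Rises numbered 1 without that library and 2 without corticosterone library 3.

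The MS4A family, tetraspan membrane proteins that lie in a cluster on chromosome 19, had the highest median of the lists, 1.16 over 12 tested members. Of these 6 rose (50.0%, against 3.48% of genes tested) and none fell, and 6 rose when any 1 library was left out. Ms4a4a (chromosome 19, 11375523 to 11392790, plus strand), a surface protein of alternatively activated macrophages that partners with the receptor dectin-1, went from 26.1, 21.3 and 23.8 CPM to 234, 230.1 and 264 CPM (3.36 ± 0.24, adjusted p = 2.93e-09). Ms4a6b rose from 66.5, 65.7 and 81.3 CPM to 235, 247 and 290.4 CPM (1.85 ± 0.13, adjusted p = 5.40e-10). Ms4a6c (chromosome 19, 11469366 to 11482192, plus strand) was at 178, 184 and 196 CPM and 445, 469 and 510.0 CPM (1.35 ± 0.07, adjusted p = 7.07e-12). Ms4a6d rose from 273, 248 and 253 CPM to 511, 511 and 543 CPM (1.02 ± 0.09). Libraries of either group lay close together for all 4. Family members are similar in sequence, so reads may have been split between copies. With the block 6 rose and 2 fell. The B cell member Ms4a1 had too few counts to be tested.

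Several scavenger receptors and receptors for dead cells rose. Cd163, the macrophage receptor for haemoglobin bound to haptoglobin, was at 1.09, 1.13 and 1.74 CPM with vehicle and 11.5, 10.9 and 13.1 CPM with corticosterone (3.16 ± 0.25, adjusted p = 3.82e-09). Mertk, a receptor kinase for apoptotic cells, rose from 139, 153 and 119 CPM to 342, 368 and 335 CPM (1.34 ± 0.12, adjusted p = 2.68e-08). Its bridging ligand Gas6 went from 528, 531 and 533 CPM to 695, 781 and 796 CPM (0.51 ± 0.10, adjusted p = 0.00163). Stab1, a scavenger receptor that also binds apoptotic cells, rose from 2250.5, 2418 and 2508 CPM to 3995, 4420.3 and 4413 CPM (0.84 ± 0.13, adjusted p = 0.000114). None of these genes had overlapping groups. Of 33 tested efferocytosis receptors and bridging proteins 8 rose and none fell (24.2% higher, against 3.48% of genes tested; median 0.19), and with the block 15 rose and 3 fell. Megf10, an engulfment receptor gene that is not in this list, was called lower and is given below. Haem and iron genes otherwise gave few calls: of 21 tested, Cd163 rose and the iron transporter Slc11a2 fell, from 204, 184 and 167 CPM to 128, 117 and 98.0 CPM (−0.70 ± 0.12). These are 4.76% of the list each way, against 3.48% and 2.46% of genes tested. With the block 2 rose and 1 fell.

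A pair of opsonin genes showed smaller rises. C1qc, a chain of the complement initiator C1q, went from 850.3, 859 and 905 CPM to 1112, 1161 and 1233 CPM (0.42 ± 0.08, adjusted p = 0.00114), and C1qb by 0.40 ± 0.10. C1qb was not called without corticosterone library 3 or vehicle library 2 (adjusted p up to 0.0807), and then C1qc alone of the list was called. These were the 2 of 21 tested complement genes that were called (9.52% higher, against 3.48% of genes tested), and the median was 0.11. With the block 4 rose and 2 fell. The low-affinity Fc receptor gene Fcgr3 rose from 319, 316 and 331 CPM to 495, 539 and 593 CPM (0.75 ± 0.09, adjusted p = 7.28e-06), and Fcgrt, which encodes the recycling receptor of IgG, from 70.2, 60.4 and 78.0 CPM to 94.4, 116 and 141 CPM (0.75 ± 0.16). The Src family kinase gene Fgr fell from 27.2, 20.8 and 17.7 CPM to 10.1, 6.97 and 5.80 CPM (−1.52 ± 0.22, adjusted p = 5.35e-05). All 3 genes had groups without overlap. In this list of 13 tested genes 2 rose and 2 fell, 15.4% each way against 3.48% and 2.46% of genes tested. The median was −0.09, and with the block 4 rose and 2 fell. A single fall (1) was left without corticosterone library 1 or 2 or vehicle library 2 or 3.

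Paired receptors of the PILR family fell strongly. Pilra, an inhibitory receptor of myeloid cells, was at 94.8, 74.2 and 89.2 CPM with vehicle and 20.3, 18.5 and 20.7 CPM with corticosterone (−2.12 ± 0.29, adjusted p = 3.99e-05). The activating partners Pilrb1 and Pilrb2 went from 9.01, 6.71 and 8.10 CPM to 2.31, 1.79 and 2.47 CPM (−1.86 ± 0.32) and from 9.01, 8.64 and 8.20 CPM to 2.91, 2.49 and 3.06 CPM (−1.61 ± 0.30). The 3 genes share near-identical sequence and lie next to each other, so their separate values are uncertain. The SLAM family receptor Slamf9 fell from 74.6, 65.7 and 79.7 CPM to 34.1, 29.4 and 32.4 CPM (−1.20 ± 0.13, adjusted p = 1.13e-06). In the opposite direction Siglec1, a receptor for sialic acid also known as CD169, rose from 101, 96.7 and 95.3 CPM to 175, 162 and 172 CPM (0.80 ± 0.13, adjusted p = 0.000179). Of 34 tested paired and inhibitory receptors 3 rose (8.82%, against 3.48% of genes tested) and 5 fell (14.7%, against 2.46%). The median was −0.17, and 6 rose and 10 fell with the block. The 5 falls were the same number whichever library was left out, whereas rises dropped to 1 without corticosterone library 2 or 3 or vehicle library 3.

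Several receptors for metabolites and chemoattractants fell. Gpr84, which senses medium-chain fatty acids, went from 109.6, 88.6 and 94.3 CPM to 34.9, 37.2 and 35.2 CPM (−1.45 ± 0.24, adjusted p = 0.000338). Hcar2, the receptor for niacin and hydroxybutyrate, went from 8.57, 5.67 and 5.30 CPM to 2.19, 1.70 and 1.17 CPM (−1.95 ± 0.30, adjusted p = 0.000142). Icam1, the adhesion ligand of leukocyte integrins, fell from 121, 121 and 125 CPM to 69.2, 64.6 and 67.2 CPM (−0.87 ± 0.07, adjusted p = 3.01e-09), with nearly equal libraries within each group. Jaml, an adhesion protein of leukocytes, rose instead from 0.365, 0.306 and 0.239 CPM to 3.59, 3.39 and 6.01 CPM (3.82 ± 0.35, adjusted p = 9.14e-08). Of 37 tested genes of this list 2 rose (5.41%, against 3.48% of genes tested) and 5 fell (13.5%, against 2.46%). The median was −0.05, and with the block 8 rose and 5 fell. Without corticosterone library 2 or vehicle library 2, 1 rise was called. The receptor gene Gpr35 rose from 4.85, 3.49 and 3.83 CPM to 17.1, 13.1 and 11.2 CPM (1.77 ± 0.21) and Lifr, the receptor of leukaemia inhibitory factor, from 4.30, 5.88 and 7.72 CPM to 20.4, 30.1 and 36.6 CPM (2.28 ± 0.26). For Lifr, number 3 was the highest and number 1 the lowest library in both groups.

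Genes of clotting and tissue repair gave single large changes rather than a common direction. F13a1, which encodes the A subunit of the clot-stabilising factor XIII, rose from 47.8, 21.0 and 17.9 CPM to 258, 150.3 and 155 CPM (2.7 ± 0.42, adjusted p = 0.00024). Number 1 was the highest library in both groups, and without the libraries numbered 1 the log2 fold change was 2.97. Thbd, the thrombomodulin gene, rose from 33.9, 27.5 and 31.2 CPM to 45.5, 46.3 and 51.3 CPM (0.63 ± 0.12). In all 3 of 19 tested coagulation genes rose (15.8%, against 3.48% of genes tested) and 1 fell (5.26%, against 2.46%). The median was 0.02, with 5 rises and 6 falls under the block. The fall, in Procr, was not called without vehicle library number 1 (adjusted p = 0.0579). Of 28 matrix genes 4 rose and 4 fell, 14.3% each way against 3.48% and 2.46% of genes tested. Their median was −0.11, and with the block 7 rose and 9 fell. Mmp12, the macrophage elastase, fell within each replicate number, from 443, 301 and 236 CPM to 153, 98.6 and 73.1 CPM (−1.59 ± 0.43, adjusted p = 0.0289). It was not called without corticosterone library 2 or 3 or vehicle library 1 or 2 (adjusted p up to 0.146). Falls in the list numbered 1 without corticosterone library 2, and 2 without corticosterone library 3 or any 1 vehicle library. Ecm1, a secreted matrix protein, rose from 146, 115 and 115 CPM to 255, 266 and 283 CPM (1.09 ± 0.10, adjusted p = 1.20e-07). Among 25 growth factors and repair signals 3 rose and 2 fell (median 0.00), including the rise of Hgf, hepatocyte growth factor (0.59 ± 0.10), and the fall of Pdgfb, from 76.4, 86.4 and 73.1 CPM to 42.4, 41.9 and 31.7 CPM (−1.02 ± 0.18). With the block 4 rose and 4 fell, and without any 1 library other than vehicle number 1 there was 1 fall.

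Ch25h, which makes the signalling oxysterol 25-hydroxycholesterol, had the largest fall among called genes that reached 5 CPM without overlap. Its level was 15.2, 11.2 and 10.6 CPM with vehicle and 1.51, 1.57 and 1.06 CPM with corticosterone (−3.15 ± 0.38, adjusted p = 5.19e-06). The partner receptor gene Rxra rose from 199, 212 and 205 CPM to 259, 293 and 285 CPM (0.44 ± 0.08). Of 21 tested oxysterol and LXR genes 1 rose (4.76%, against 3.48% of genes tested) and 3 fell (14.3%, against 2.46%). Their median was 0.01, and Ch25h alone fell without corticosterone library 2 or 3 or vehicle library 1 or 2. Cholesterol synthesis showed no call among 24 tested genes (median −0.08, from −0.19 to 0.05). With the block 1 of these genes fell. Fatty acid genes rose in 6 of 33 cases (18.2%, against 3.48% of genes tested) and fell in 1 (3.03%, against 2.46%). Their median was −0.02, and with the block 7 rose and 2 fell. Ucp2, a mitochondrial carrier, went from 651, 666 and 672 CPM to 799.7, 848 and 852 CPM (0.33 ± 0.07, adjusted p = 0.00275), and Lipa, the lysosomal acid lipase, from 1141, 1261 and 1219 CPM to 966, 981 and 958 CPM (−0.32 ± 0.06, adjusted p = 0.00223). Rises in this list dropped to 2 without corticosterone library 2 or vehicle library 3, and to 3 without vehicle library 1.

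Glycolytic genes leaned lower. Of 26 tested, 4 fell and none rose, 23 had a negative log2 fold change, and the median was −0.21. Of all genes tested 2.46% were called lower and 47.8% had a negative log2 fold change. With the block 11 fell. The aldolase gene Aldoc went from 41.1, 41.2 and 44.6 CPM to 20.7, 23.7 and 28.5 CPM (−0.80 ± 0.15, adjusted p = 0.00151), and the lactate exporter Slc16a3 from 128, 101 and 115 CPM to 76.0, 62.1 and 70.6 CPM (−0.72 ± 0.15). In lipid mediator pathways 3 of 27 tested genes rose and 3 fell, 11.1% each way against 3.48% and 2.46% of genes tested. Their median was −0.08, and with the block 5 rose and 6 fell. Pla2g7, which inactivates platelet-activating factor, rose from 329.5, 290.1 and 274 CPM to 557, 571 and 635 CPM (0.98 ± 0.13, adjusted p = 3.16e-05), and Alox5, the enzyme that starts leukotriene synthesis, fell from 12.4, 9.81 and 12.8 CPM to 7.49, 6.59 and 8.07 CPM (−0.66 ± 0.14, adjusted p = 0.00496). Rises dropped to 1 without corticosterone library 2 or 3 or vehicle library 2 or 3. Of 35 lysosomal genes 1 rose (2.86%, against 3.48% of genes tested) and 2 fell (5.71%, against 2.46%). Their median was 0.10, with 4 rises and 3 falls under the block and 1 fall when any 1 library was left out. Lgmn, an endosomal protease, rose from 1439, 1399 and 1423 CPM to 1874, 1906 and 1933 CPM (0.42 ± 0.07, adjusted p = 0.000324).

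Antigen presentation and alternative activation gave few calls. Among 14 tested MHC class II genes only 1 was called, as lower (7.14%, against 2.46% of genes tested). This was Ciita, the master activator of the pathway, at 0.547, 0.521 and 0.991 CPM and 0.113, 0.224 and 0.137 CPM (−2.06 ± 0.51, adjusted p = 0.0146). It was not called without corticosterone library 1 or 3 or vehicle library 3 (adjusted p up to 0.11). Of 29 alternative activation genes 3 rose (10.3%, against 3.48% of genes tested) and 1 fell (3.45%, against 2.46%). Their median was −0.22, and with the block 4 rose and 2 fell. Mrc1, the mannose receptor, rose from 507, 586 and 589 CPM to 847, 972 and 1027 CPM (0.76 ± 0.21, adjusted p = 0.0288), but was not called without corticosterone library 2 or 3 or any 1 vehicle library (adjusted p up to 0.121). Rises in the list numbered 0 without corticosterone library 3 or vehicle library 2, and 1 without corticosterone library 2 or vehicle library 1 or 3. Arg1, the arginase gene, was at 3.83, 1.38 and 1.88 CPM and 2.12, 1.57 and 2.20 CPM, with a 95% interval of its log2 fold change from −4.39 to 3.89. The fit estimates the spread over all 27 libraries, so this interval does not describe the 6 alone. Outside them Arg1 reached 117 and 78.4 CPM in knockout vehicle libraries 2 and 3, and 67.1 CPM in wild-type dexamethasone library 1. Of 16 costimulatory and checkpoint genes 1 rose (6.25%, against 3.48% of genes tested) and 2 fell (12.5%, against 2.46%). Their median was −0.08, and without any 1 library at most 1 of the falls was called. With the block 3 rose and 3 fell.

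Housekeeping groups differed by little. No member was called in 6 of the 36 lists, which held 196 tested genes. The 35 oxidative phosphorylation genes ranged from −0.18 to 0.10 (median −0.05) and the 44 ribosomal protein genes from −0.10 to 0.05 (median −0.02). Of 52 tested cell cycle genes 49 had a negative log2 fold change, beside 47.8% of all genes tested. Their median was −0.15, their range −0.36 to 0.20, and none was called. With the replicate block 1 cell cycle gene fell. In the list of amino acid and stress response genes 1 of 27 was called, as lower (3.7%, against 2.46% of genes tested). It was Txnrd1 (thioredoxin reductase), at −0.27 ± 0.07, and was not called without corticosterone library 2 or 3 or vehicle library 1 (adjusted p up to 0.142). With the block 3 rose and 5 fell.

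**Figure D4:**
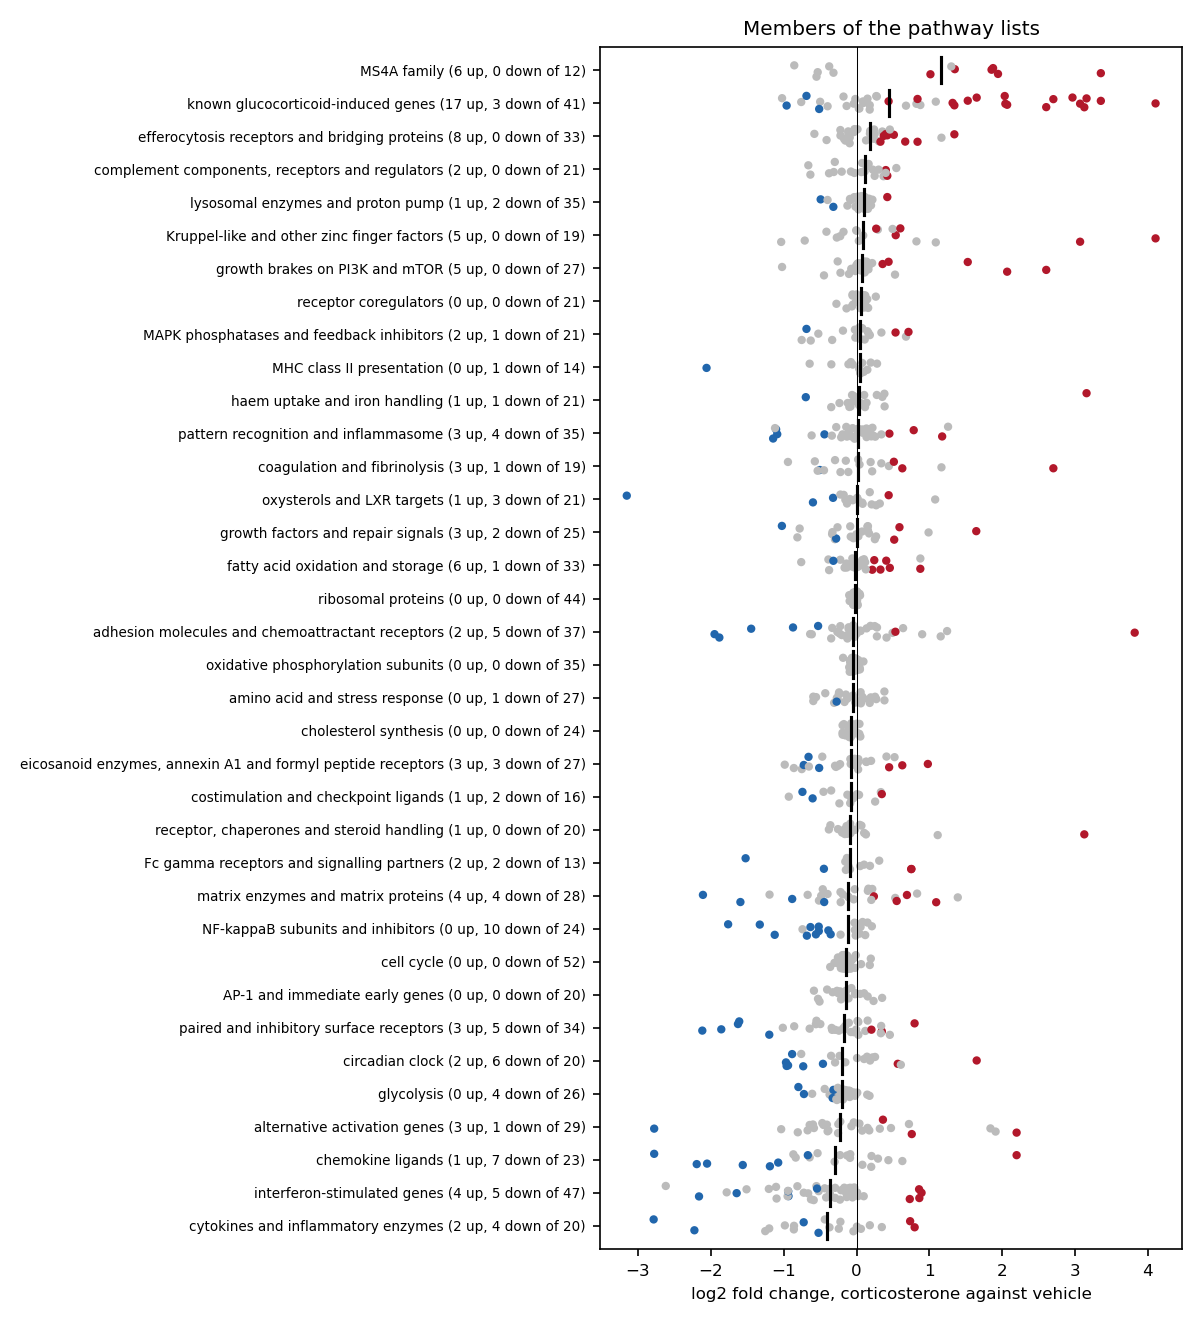
Fitted log2 fold change with corticosterone (horizontal axis) of each tested member of the 36 pathway lists (rows, ordered by median). Red points were called higher, blue points called lower and grey points not called, black bars are medians, and each row gives its counts. The MS4A family has the highest median (1.16) and cytokines and inflammatory enzymes the lowest (−0.40).

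Further large changes fell outside these groups. Adam22, of the disintegrin family, rose from 1.17, 1.20 and 0.888 CPM to 7.07, 6.4 and 5.90 CPM (2.57 ± 0.20), Cbr2, a carbonyl reductase gene, from 14.5, 13.8 and 18.7 CPM to 48.9, 55.7 and 72.6 CPM (1.92 ± 0.26) and Prss16, a thymic serine protease gene, from 5.36, 6.31 and 9.70 CPM to 18.8, 27.7 and 32.5 CPM (1.89 ± 0.34). Smaller changes in the other direction were those of Slc36a2, an amino acid transporter gene (7.26, 6.74 and 6.18 CPM to 2.42, 2.21 and 2.40 CPM; −1.52 ± 0.17), and Carmil1, a regulator of actin capping (31.3, 28.7 and 26.3 CPM to 11.9, 10.4 and 10.2 CPM; −1.41 ± 0.19). Dio2, the deiodinase that activates thyroid hormone, went from 7.29, 9.96 and 5.57 CPM to 3.14, 3.55 and 2.03 CPM (−1.39 ± 0.23) and Ceacam19 from 10.4, 10.8 and 9.94 CPM to 3.97, 3.90 and 4.29 CPM (−1.35 ± 0.23). The rule that named these 7 genes required groups without overlap. Megf10, an engulfment receptor, went from 5.14, 7.78 and 7.86 CPM to 2.50, 2.08 and 0.996 CPM (−1.90 ± 0.51, adjusted p = 0.025) and was not called without corticosterone library 2 or 3 or vehicle library 2 or 3 (adjusted p up to 0.14).

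Markers of other cell types were measured beside these changes. Summed over 11 B cell markers the level was 527 to 577 CPM with vehicle and 287 to 304 CPM with corticosterone, and 4 of 6 tested members fell. Falls numbered 1 without corticosterone library 2, 2 without corticosterone library 3 or vehicle library 3, and 3 when any other of the 6 was left out. Most of that sum came from Cd72, which macrophages also express and which fell from 336, 371 and 392 CPM to 149, 149 and 146 CPM (−1.31 ± 0.11, adjusted p = 2.68e-08), and from Blnk. The other falls were in Cd79b, a chain of the B cell receptor, from 4.81, 4.78 and 5.43 CPM to 2.95, 2.11 and 2.88 CPM (−0.92 ± 0.20, adjusted p = 0.00616), and in Ighm, the IgM heavy chain gene, from 13.6, 7.02 and 7.96 CPM to 5.48, 3.42 and 4.39 CPM (−1.10 ± 0.32, adjusted p = 0.0425). The B cell genes Cd79a, Ms4a1 and Pax5 were at most 0.255 CPM in any of the 6 libraries. Monocyte markers summed to 56.9 to 155 CPM with vehicle and 121 to 392 CPM with corticosterone. Of that list Chil3 made the largest part, at 94.9, 33.5 and 21.1 CPM and 328, 145 and 88.5 CPM, and it was not called (1.91 ± 0.70, adjusted p = 0.136) except with the replicate block (adjusted p = 0.0295). Ly6c2, which defines inflammatory monocytes, was at 12.2, 3.68 and 2.60 CPM and 12, 4.67 and 3.95 CPM. Treml4, also of the monocyte list, was lower with corticosterone, at 10.3, 10.9 and 13.8 CPM and 4.46, 4.8 and 5.46 CPM. Of 9 tested monocyte markers none was called higher and 1 lower, also when any 1 library was left out, and with the block 3 rose and 1 fell. Neutrophil markers summed to 189 to 471 CPM and 201 to 440 CPM, stromal markers to 332 to 1280 CPM and 327 to 1210 CPM, and osteoclast markers to 236 to 339 CPM and 232 to 342 CPM, so these ranges overlapped. Dendritic cell markers were at 7.63 to 13.7 CPM with vehicle and 4.39 to 7.14 CPM with corticosterone. Ccr7 made the largest part of that sum with vehicle, at 7.76, 3.58 and 3.48 CPM, and was at 2.23, 1.18 and 0.618 CPM with corticosterone. Of 10 dendritic cell markers 6 were under 1 CPM in all 6 libraries. Among the 5 tested, 2 had a positive and 3 a negative log2 fold change, and 1 was called lower. T and NK cell markers were at 19.7 to 31.9 CPM with vehicle and 13.7 to 25.8 CPM with corticosterone. Nearly all of the T and NK cell sum came from Cd4, at 30.65, 28.3 and 18.9 CPM and 25.4, 23.1 and 13.3 CPM. The remaining 11 of these 12 markers were under 1 CPM in all 6 libraries. Mast cell and basophil markers summed to 3.79 to 10.8 CPM and 2.33 to 7.82 CPM, erythroid and megakaryocyte markers, with Alas2 at 0, to 12.2 to 23.8 CPM and 16.9 to 31.1 CPM, and endothelial markers to 139 to 162 CPM and 117 to 139 CPM. Itga2b made most of the erythroid and megakaryocyte sum, where 7 of 10 markers were under 1 CPM in all 6 libraries. The part of other cells in the changes was not tested.

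Dexamethasone, a synthetic glucocorticoid with a higher affinity for the receptor, was set beside corticosterone at a dose that was not matched (100 nM against 500 nM). The comparisons with vehicle share their vehicle libraries, so the glucocorticoids are compared by the direct test between them. It called 27 genes (0.185%), 541 having an unadjusted p under 0.05. Zbtb16 was at 23.3, 31.4 and 35.0 CPM with dexamethasone, above every corticosterone library (difference 1.30 ± 0.20, adjusted p = 0.00229). Fkbp5 was at 772, 871 and 948 CPM (0.62 ± 0.09, adjusted p = 0.00229), Klf9 at 66.9, 65.9 and 69.2 CPM (0.76 ± 0.12) and Tsc22d3 at 388, 352 and 474 CPM (0.59 ± 0.12, adjusted p = 0.0295). Pik3ip1 reached 4.78, 4.52 and 7.09 CPM (1.51 ± 0.23) and Jaml 15.2, 22.3 and 32.5 CPM (2.43 ± 0.23, adjusted p = 5.23e-06). Among genes that fell, Tnip3 was lower still with dexamethasone, at 15.3, 18.3 and 17.4 CPM (−0.76 ± 0.12, adjusted p = 0.00267), as was Cd72 at 107, 85.5 and 76.0 CPM (−0.73 ± 0.11). The matrix gene Mmp19 was at 47.8, 44.8 and 42.9 CPM with vehicle, 70.0, 69.7 and 79.4 CPM with corticosterone and 95.9, 106 and 128 CPM with dexamethasone (0.59 ± 0.10, adjusted p = 0.00574). No direct difference was called for Per1 (0.37 ± 0.10), Cd163 (0.43 ± 0.21), Mertk (0.18 ± 0.11), Il1b (−0.24 ± 0.49) or Ch25h (−1.06 ± 0.47), which does not show equal responses at these doses. The 27 calls became 10 without corticosterone library 1, 16 without corticosterone library 2, 15 without dexamethasone library 3, 14, 2 and 3 without the wild-type libraries numbered 1, 2 and 3, and 137 with the replicate block.

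In knockout cells, whose vehicle and corticosterone libraries are separate from those above, genes moved mostly as in wild type. Of the 507 genes that rose in wild-type cells 481 (94.9%) had a positive log2 fold change in knockout cells, where 49.7% of all genes tested did, and of the 359 that fell 343 (95.5%) had a negative one, beside 50.2% of all. The medians in knockout were 0.38 and −0.38, beside 0.52 and −0.61 in wild type. These genes were chosen by their calls in wild type, which favours larger values there, so the medians do not compare the genotypes. Ncoa2, counted over the whole gene, averaged 18.5 ± 2.78 CPM (SD, n = 4) in vehicle libraries of the knockout. The test of the difference between genotypes called 3 genes (0.0206%), with 926 at an unadjusted p under 0.05. Ms4a4a was at 75.0, 226, 177 and 132 CPM in knockout libraries with vehicle and 359.7, 333, 366 and 395 CPM with corticosterone, a rise of 1.25 ± 0.19 that differed from that in wild type by −2.10 ± 0.30 (knockout minus wild type, adjusted p = 0.00461). The vehicle level was thus higher and more spread in knockout, and all treated knockout libraries exceeded the wild-type ones. Ppfibp2, a liprin gene that fell in wild type from 95.9, 91.2 and 96.6 CPM to 54.9, 50.4 and 51.4 CPM (−0.86 ± 0.09), was at 64.1, 56.0, 51.6 and 68.8 CPM and 53.8, 56.9, 53.2 and 60.3 CPM in knockout (difference 0.76 ± 0.12, adjusted p = 0.00771). Lpl, lipoprotein lipase, was not called in wild type (−0.22 ± 0.13) and went from 1884, 2363, 1783 and 1724 CPM to 837, 748, 689 and 701 CPM in knockout (difference −1.16 ± 0.17, adjusted p = 0.00461).

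Several genes with strong falls in wild type had small fitted changes in knockout without passing the test of the difference. Pilra was at 63.4, 35.0, 38.7 and 61.3 CPM and 30.6, 44.0, 35.6 and 37.6 CPM in knockout libraries (−0.42 ± 0.24; difference 1.69 ± 0.37, adjusted p = 0.12), Gpr84 at 58.9, 33.1, 37.5 and 46.9 CPM and 30.0, 50.1, 38.3 and 31.9 CPM (−0.23 ± 0.20; difference 1.22 ± 0.31, adjusted p = 0.202), and Hcar2 gave −0.41 ± 0.26 (difference 1.54 ± 0.40, adjusted p = 0.202). The vehicle libraries of the knockout spread widely for Pilra and Gpr84, with numbers 1 and 4 above 2 and 3 for both. Against same-numbered vehicle libraries, both genes were lower with corticosterone in numbers 1 and 4 and higher in number 2. Number 3 changed little. Arg1 also separated these vehicle libraries, at 2.63 and 4.27 CPM in numbers 1 and 4 and 117 and 78.4 CPM in 2 and 3. The small fitted changes of Pilra and Gpr84 are thus averages over unlike libraries. Zbtb16 rose by 2.46 ± 0.21 in knockout (difference −1.64 ± 0.33, adjusted p = 0.0688), whereas Fkbp5 (2.87 ± 0.09), Per1 (1.75 ± 0.09), Tnip3 (−1.80 ± 0.10) and Cd72 (−1.25 ± 0.10) had log2 fold changes close to those in wild type. The 3 calls became 36 without knockout vehicle library 1, 9 without knockout vehicle library 4, 0, 0 and 1 without the wild-type libraries numbered 1, 2 and 3, and 110 with the replicate block.

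**Figure D5:**
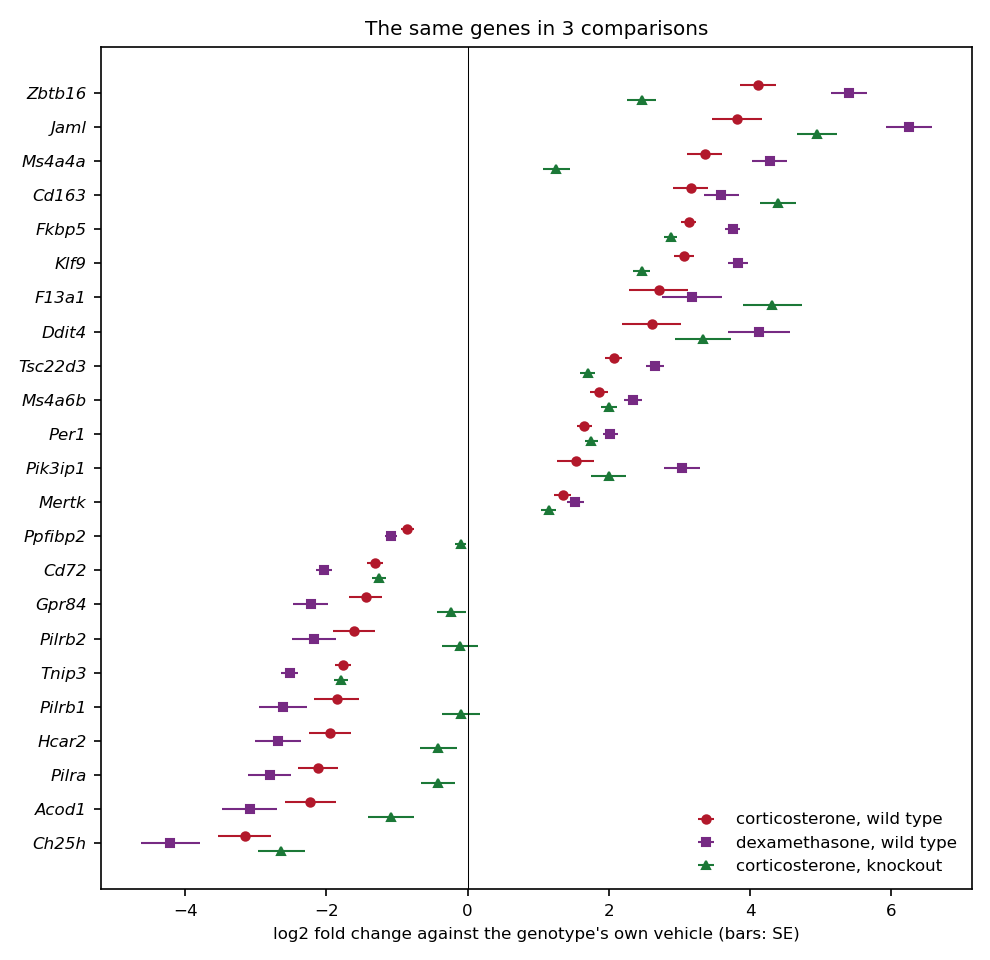
Fitted log2 fold change against the vehicle of the same genotype (horizontal axis, bars are SE) of 23 genes with corticosterone in wild type (red circles), dexamethasone in wild type (purple squares) and corticosterone in knockout (green triangles). The wild-type comparisons share their vehicle libraries. Those values stand side by side, with no comparison drawn from them, and Ms4a4a is the gene whose knockout value lies farthest below that of wild type.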

How the data were processed

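Poly(A) RNA of 27 macrophage libraries was made into directional libraries and read as paired 50 bp reads, per the labels' protocols, which state that RNA had an integrity number above 8. The deposited values are raw read counts per gene made by the authors. Per the submitters' processing notes, fastp 0.23.2, STAR 2.7.0, featureCounts, edgeR 3.38.4 and the build mm10 (GRCm38) were used. The sources used here do not give the strand setting of the counting, so genes that overlap or share near-identical copies are less certain.

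Of 29872 genes, 14589 passed filterByExpr (minimum count 10). Counts were scaled by TMM, and all 27 libraries entered 1 model with 8 group means. Comparisons used the quasi-likelihood F test of edgeR (version 4.0.16, R 4.3.3, with legacy and robust settings) with Benjamini-Hochberg adjustment over all genes tested, and genes were called at an adjusted p under 0.05. The scripts were tested on simulated data. SE and 95% intervals are those of the fitted log2 fold change. The common biological coefficient of variation was 0.122. Depth was 26001499 to 31589581 counts per library in the comparison described. The replicate libraries of each group differed by more than sampling noise. Positions came from GENCODE vM21, which held 29815 of the gene identifiers, and promoter sequences from RefSeq on GRCm38.p6.

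The replicate numbers come from the labels, which do not say what a number shares. Over 11864 genes with at least 1 CPM, deviations from the group means correlated at 0.77, 0.51 and 0.76 between same-numbered corticosterone and vehicle libraries. The main fit does not use this pairing, because the labels state no block. Its calls, SE and adjusted p are those given unless the block is named. A fit with the number (within genotype) as a block is an alternative, given where it matters. It called 1790 genes with corticosterone against 866 in the main fit, so some genes given as not called pass with the block.

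Members and lists were chosen with earlier results of these data known. Genes were named by rule: the 15 largest rises and 15 largest falls among those called that reached 5 CPM in the group where they were higher, with no overlap between the groups and no predicted or clone name, up to 4 called members of each of 36 pathway lists by smallest adjusted p, a set of receptor, target and macrophage genes, and genes called in the comparisons with dexamethasone or the knockout that fell in these sets or were among the 5 largest of each direction. There were also 11 marker lists, and 1 B cell marker is not reported here. Lists are described by counts and medians. Each count is to be read beside the 3.48% of all genes tested that were called higher and the 2.46% called lower. Alternatives were RLE scaling (DESeq2's size factor method), no filter on low counts, smaller sets of libraries in the fit, the replicate block, the edgeR 4 fit, DESeq2 1.42.0, and leaving out libraries or replicate numbers; the block with wild-type libraries alone was added after seeing the data.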

Additional observations from a re-analysis of the deposited data

Results flagged for a closer look

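The response to corticosterone differed between genotypes, by edgeR's quasi-likelihood test of the difference, in 3 genes. For Ms4a4a the log2 fold change was lower in knockout than in wild-type cells by a difference of −2.104 (adjusted p = 0.00461). For Lpl the difference was −1.159 (adjusted p = 0.00461), and for Ppfibp2 it was 0.7551 (adjusted p = 0.00771), the wild-type fall being larger. For the genes whose knockout values are given above, no library stood apart by the ratio of its gap to the range in the groups of 4, and groups of 3 were not tested. That ratio looks for a lone library and cannot show a group that splits into pairs. Ms4a4a was at 75.0 and 132 CPM in knockout vehicle libraries 1 and 4 and at 226 and 177 CPM in 2 and 3.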

How the results depend on the processing

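The 866 genes called with corticosterone numbered 845 with RLE scaling, 638 without a filter on low counts, 1006 with only wild-type libraries in the fit, 697 with only the groups compared, 922 with the edgeR 4 fit and 1047 with DESeq2, all within 1.5 times. With the replicate block 1790 genes were called (1033 higher, 757 lower), among them 864 of the 866, and with the block in wild-type libraries alone, an alternative chosen after seeing the data, 3181 (1763 higher, 1418 lower). Leaving out 1 library gave 497 to 690 calls (307 to 407 higher, 190 to 283 lower). Without the wild-type libraries numbered 1, 2 or 3 there were 486, 291 and 323 calls (278, 196 and 205 higher; 208, 95 and 118 lower). Fewer libraries entered those fits.

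For dexamethasone against corticosterone the 27 calls became 10 with only the groups compared, 42 with the edgeR 4 fit, 57 with DESeq2, 137 with the replicate block, 399 with the block in wild-type libraries alone, 10 to 39 without 1 library, and 14, 2 and 3 without numbers 1, 2 and 3. For the difference between genotypes the 3 calls became 13 with only the groups compared, 76 with DESeq2, 110 with the replicate block, 2 to 36 without 1 library, and 0, 0 and 1 without numbers 1, 2 and 3. The cause of the gains with the block was not tested.

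Of the 114 named genes called with corticosterone, 85 were called whichever library was left out, 114 with the replicate block, and 90, 75 and 78 without the wild-type libraries numbered 1, 2 and 3, and none changed sign when 1 library was left out. Their values over all alternatives were 222 times no longer past the threshold and never reversed. Depth limits genes under 2.22 CPM, where the median SE was 0.38.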
